A study of Mus musculus with 2 samples.

Results

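Expression of the bone morphogenetic protein (BMP) genes *Bmp2* and *Bmp4*, of the secreted BMP antagonists *Grem1*, *Nog* and *Nbl1*, and of the BMP target genes *Id1*, *Id2*, *Id3* and *Smad6* was examined in the mouse cell lines GC-1spg and GC-2spd (ts). The genes were chosen by symbol, from knowledge of the pathway and with earlier results of these libraries in view. Their values, and the calls made on them below, are therefore given as a description. The list holds 9 genes, 8 of which are among the 14450 genes that had an unambiguous sense tag in either library.

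BMPs are secreted dimers of the TGF-beta superfamily. They bind pairs of type I and type II serine/threonine kinase receptors, which phosphorylate Smad1, Smad5 and Smad9, and these enter the nucleus with Smad4. Antagonists such as gremlin and noggin bind the ligands outside the cell, while the *Id* genes and *Smad6* are among the direct targets that the Smads switch on. In the testis, BMP4 from somatic cells is known to act on spermatogonia.

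GC-1spg was derived from type B spermatogonia of a mouse aged 10 days and carries the plasmid pSV3-neo. GC-2spd (ts) was derived from spermatocytes of a mouse aged 6 weeks and carries the SV40 large T antigen. Both are single immortalised lines grown in DMEM with fetal bovine serum, and the labels name no other agent for either. Each was measured as 1 library by digital gene expression (DGE) tag profiling, in which *Nla*III cuts cDNA at CATG and *Mme*I releases the CATG with the bases that follow it, as a tag of 21 bases.

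After the removal of low quality and single copy tags, 5072149 tags remained for GC-1spg against 4726808 for GC-2spd (ts). Levels are given in TPM, the copies of a gene scaled to 1000000 clean tags. One copy was worth 0.197 TPM in GC-1spg against 0.212 TPM in GC-2spd (ts), and no tag with fewer than 2 copies was listed. Because there was 1 library per line, no difference has a replicate check, every call compares those libraries and not the stages of the cells they came from, and every interval covers counting error only. Fewer expressing cells and less RNA per cell cannot be told apart in such bulk libraries. The germ cell label was checked with 12 marker genes. Of these, 11 had no unambiguous sense tag listed in either library, and *Spo11* had 2 copies in GC-1spg against 0 in GC-2spd (ts). Listed genes are counted by such tags throughout. Among 10 fibroblast or mesenchymal markers, 8 were listed, with 19123 tags in GC-1spg against 12420 in GC-2spd (ts), and *Lum* and *Thy1* were unlisted in both. The listed ones differed in both directions, since *Col1a1* had 10465 and 2425 tags and *Dcn* 710 and 2, while *Vim* had 984 and 2897 and *Col3a1* 50 and 120, and the median log2 ratio of GC-2spd (ts) over GC-1spg was 0.15. The Sertoli list had 5 of 8 markers listed with 707 and 184 tags, and also differed in both directions. *Wt1* had 620 and 0 tags and *Dhh* 24 and 0, while *Gata4* had 29 and 138 and *Sox9* 29 and 46. The Leydig list had 2 of 6 listed with 4 and 5 tags. Whether differences in cell identity have a part in the values below was not tested.

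The tags that carry the values are shown first, since each gene was read almost entirely through 1 or a few of them. They are the most copied sense tag of each gene, written 5′ to 3′ on the transcript strand with the *Nla*III site in capitals. Coordinates are those of the mouse assembly GRCm38 with the annotation of GENCODE release M21.
Bmp4: CATGttgtacctggatgagta
Grem1: CATGtgaagagatgttaccaa
Nbl1: CATGaataaataccttcaatg
Id1: CATGtgttccagccgacgatc
Id3: CATGtgatgtatattaaactt
Smad6: CATGtctccggatgccaccaa
The *Bmp4* tag lies at chr14:46383920-46383940 on the minus strand, in the coding part of exon 4 of 4. The *Grem1* tag lies at chr2:113746643-113746663 on the minus strand, in the 3′ UTR in exon 2 of 2. The *Nbl1* tag at chr4:139082297-139082317, on the minus strand, is in the 3′ UTR in exon 4 of 4 and ends 13 bases from the annotated 3′ end. The *Id1* tag at chr2:152736976-152736996 is on the plus strand in the coding part of exon 2 of 2. The *Id3* tag at chr4:136145324-136145344 is on the plus strand in the 3′ UTR in exon 3 of 3. The *Smad6* tag at chr9:63954029-63954049 is on the minus strand in the coding part of exon 4 of 4. Each is the CATG site closest to the 3′ end of its transcript, the site that the method is built to read.

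*Id2* was read through the same site in both libraries, but in a different form in each. The 2 forms are shown with the base that differs in capitals.
Id2 in GC-2spd (ts): catggggagcgaaaaCgttaa
Id2 in GC-1spg: catggggagcgaaaaGgttaa
The site is at chr12:25094287-25094307 on the minus strand, in the 3′ UTR in exon 3 of 3, and is the last CATG of the transcript. The form in the reference had 0 copies in GC-1spg against 796 in GC-2spd (ts). The other form, C16G with positions counted from 1 at the 5′ end of the tag, had 768 copies in GC-1spg against 0 in GC-2spd (ts). The base is at position 25094292 of chromosome 12. Neither library listed the form of the other.

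The *Nog* transcript gave 1 tag in its 3′ UTR and 1 in its coding sequence, each with 0 copies in GC-1spg against 2 in GC-2spd (ts). Their positions are chr11:89300922-89300942 and chr11:89301434-89301454, both on the minus strand.
Nog, 3′ UTR: CATGgcgaagcaggggggaaa
Nog, coding: CATGgtgtgtaagccatccaa

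*Bmp2*, which encodes a ligand closely related to BMP4, had no listed tag in either library, although its transcripts hold 15 CATG tags that belong to no other gene. At 0 tags with unlisted single copies, this limits *Bmp2* to a low level and does not show that it is absent. *Bmp4* had 426 tags (84.0 TPM) in GC-1spg against 134 (28.3 TPM) in GC-2spd (ts), 2.96-fold lower. The log2 ratio of GC-2spd (ts) over GC-1spg was -1.57, with an exact 95% interval from -1.86 to -1.28. The ligand gene was thus lower in GC-2spd (ts), and the level ranked 1413 among the 13066 genes listed in GC-1spg and 4333 among the 12757 listed in GC-2spd (ts).

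*Grem1* encodes gremlin 1, a secreted antagonist of BMP2 and BMP4. It had 0 tags in GC-1spg against 386 tags (81.7 TPM) in GC-2spd (ts). For a bound, 1 unlisted copy in GC-1spg was allowed for each of its tags seen in GC-2spd (ts). Against the one-sided 95% Poisson limit on that number, its observed level in GC-2spd (ts) was 35.0-fold higher. This bound and those below leave out the counting error of the GC-2spd (ts) count. *Nog*, which encodes noggin, had 0 tags in GC-1spg against 4 (0.846 TPM) in GC-2spd (ts), too few for a fold. *Nbl1*, which encodes an antagonist of the DAN family, had 478 tags (94.2 TPM) in GC-1spg against 975 (206 TPM) in GC-2spd (ts). This is 2.19-fold higher in GC-2spd (ts), with a log2 ratio of 1.13 and an interval from 0.97 to 1.29. Together the antagonists followed here had 478 tags (94.2 TPM) in GC-1spg, all from *Nbl1*, against 1365 (289 TPM) in GC-2spd (ts). Further antagonist genes, also with tags in GC-1spg, are described below and are not in these totals.

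*Id1*, *Id2* and *Id3* encode helix-loop-helix proteins that lack a DNA-binding region and hold E proteins away from DNA. *Id1* had 1386 tags (273 TPM) in GC-1spg against 481 (102 TPM) in GC-2spd (ts), 2.69-fold lower. Its log2 ratio was -1.43, with an interval from -1.58 to -1.27. *Id2* had 768 tags (151 TPM) and 802 tags (170 TPM), a log2 ratio of 0.16 with an interval from 0.02 to 0.31. This value rests on counting the C16G form as *Id2*, and with exact matches alone *Id2* would have had 0 tags in GC-1spg against 796 in GC-2spd (ts). *Id3* had 1330 tags (262 TPM) and 1280 tags (271 TPM), a log2 ratio of 0.046 with an interval from -0.065 to 0.16. Of the *Id* genes followed here *Id1* thus stood lower in GC-2spd (ts), and the *Id1* interval overlaps those of *Id2* and *Id3* at no point. *Smad6*, which encodes an inhibitory Smad that blocks BMP receptor signalling, had 159 tags (31.3 TPM) and 123 tags (26.0 TPM). Its log2 ratio was -0.27, with an interval from -0.62 to 0.080 that includes 0. The targets followed here together had 3643 tags (718 TPM) in GC-1spg against 2686 (568 TPM) in GC-2spd (ts). Of these *Id1* had 1386 and 481, while *Id2* had more tags in GC-2spd (ts) and the *Id3* and *Smad6* intervals included 0.

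**Figure D1:**
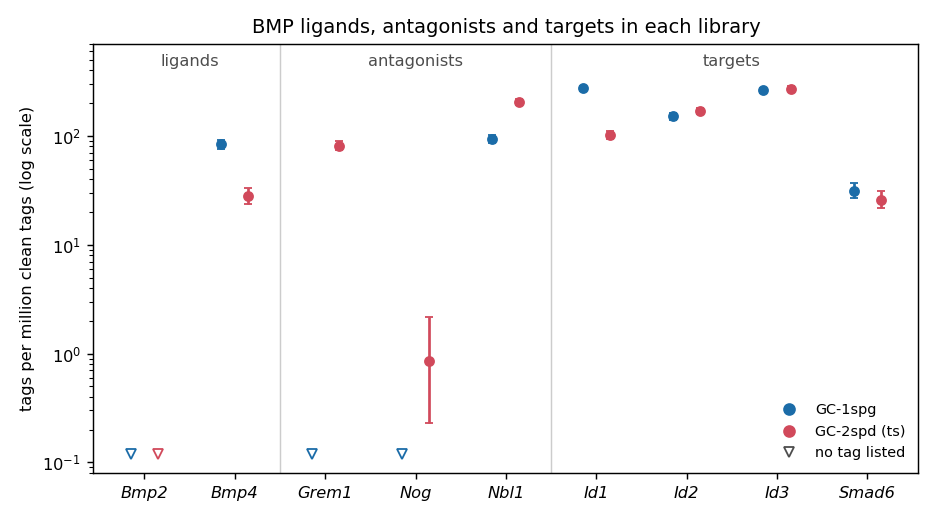
Level of each gene in TPM (log scale) in the GC-1spg and GC-2spd (ts) libraries, with exact 95% Poisson intervals for counting error and open triangles for no listed tag. *Bmp4* and *Id1* sit lower in GC-2spd (ts), *Nbl1* higher, *Grem1* and *Nog* have points in GC-2spd (ts) alone, and *Bmp2* has none.

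The order of the levels differed between the lines. In GC-1spg it ran from *Id1* (273 TPM, exact 95% Poisson interval 259 to 288) and *Id3* (262 TPM, 248 to 277) through *Id2*, *Nbl1* (94.2 TPM, 86.0 to 103) and *Bmp4* (84.0 TPM, 76.2 to 92.4) to *Smad6*. The intervals of *Id1* and *Id3* overlapped, as did those of *Nbl1* and *Bmp4*. In GC-2spd (ts) the order was *Id3* (271 TPM, 256 to 286), *Nbl1* (206 TPM, 194 to 220), *Id2* (170 TPM, 158 to 182), *Id1* (102 TPM, 92.9 to 111) and *Grem1* (81.7 TPM, 73.7 to 90.2). *Bmp4* (28.3 TPM, 23.8 to 33.6) and *Smad6* (26.0 TPM, 21.6 to 31.0) followed with overlapping intervals, and *Nog* came last. *Id1* thus moved from the first place to the fourth, while *Nbl1* moved from the fourth to the second. Levels of different genes are set side by side as tags, of which a transcript is meant to give 1 whatever its length, and the efficiency of each site is unknown.

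A gene was called when the two-sided Audic-Claverie test on its 2 counts, Benjamini-Hochberg adjusted over 14450 genes, gave an FDR of at most 0.001 and the log2 ratio was at least 1 in size. Of all genes 19.5% were called, 11.7% higher and 7.84% lower in GC-2spd (ts). Among the genes followed here *Grem1* and *Nbl1* met the rule as higher and *Bmp4* and *Id1* as lower, while *Nog*, *Id2*, *Id3* and *Smad6* did not. Since the genes were picked with this comparison known, the count of 4 is not read against that share. The rule allows for counting noise alone, and with an assumed biological coefficient of variation of 0.2 or of 0.4 between cultures (exact test of edgeR) *Grem1* was still called while *Bmp4*, *Nbl1* and *Id1* were not. *Nbl1* lay just above the limit on the log2 ratio and fell below it, at 0.96, when TMM factors replaced the total of clean tags. Across the 6 genes listed in both libraries the median log2 ratio was -0.11, against 0.16 over the 11373 genes of the whole table listed in both. With genes unlisted in 1 library at their bounds, the medians were 0.046 over 7 of the genes and 0.15 over 12349.

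**Figure D2:**
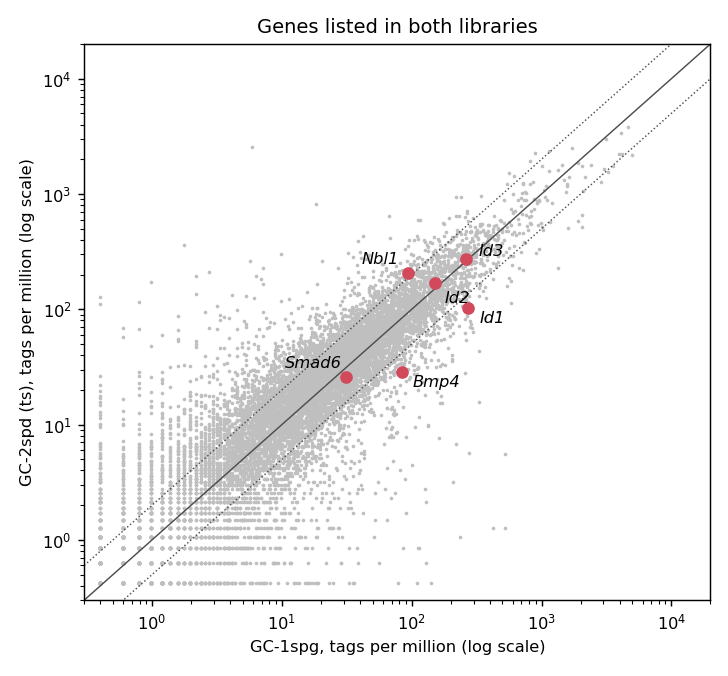
TPM in GC-2spd (ts) against TPM in GC-1spg (log scales) for the 11373 genes listed in both libraries (grey points), with the 6 genes followed here that were listed in both marked in red. The solid line marks equal levels and the dotted lines a log2 ratio of 1 in either direction. *Bmp4* and *Id1* lie below the lower dotted line and *Nbl1* just above the upper one.

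Tags away from the main site were few. The most copied tag held 93.9% of the sense copies of *Bmp4*, 95.4% of those of *Nbl1*, 97.8% of *Id1*, 98.1% of *Id3* and 93.3% of *Smad6*. The share was 79.0% for *Grem1*, and 50.7% for *Id2*, whose copies were divided between the forms above. All other unambiguous sense tags with at least 10 copies over both libraries are given here. They read the same genes at other sites. A transcript is meant to give 1 tag, so these copies come from other molecules than those of the main tag.
Bmp4, exon 2: CATGgactgttattatatgcc
Grem1, site 11: CATGttcctaaattaattcac
Grem1, site 5: CATGtcaaaaggattgcctca
Grem1, site 6: CATGcagtattgctaaaaata
Nbl1, site 2: CATGgagatctgaagggaggg
Id1, site 2: CATGtaatcgactacatcagg
Id3, site 2: CATGgatgagcttcgatctta
The sites are numbered from the 3′ end of the transcript. The exon 2 tag of *Bmp4* is also the CATG site closest to the 3′ end in another annotated transcript of that gene. The main *Bmp4* tag had 397 copies in GC-1spg against 129 in GC-2spd (ts), and the exon 2 tag, in the 5′ UTR at chr14:46387169-46387189, had 14 and 2. Their log2 ratios were -1.52 (interval from -1.82 to -1.23) and -2.71 (from -5.89 to -0.58), so both were lower in GC-2spd (ts). For *Id1* the main tag had 1353 and 472 copies and the site 2 tag in exon 1, at chr2:152736608-152736628, had 17 and 5. Their log2 ratios of -1.42 (from -1.57 to -1.27) and -1.66 (from -3.46 to -0.17) overlapped.

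All 4 *Grem1* tags with at least 10 copies were unlisted in GC-1spg and lay in the 3′ UTR. In GC-2spd (ts) the main tag had 305 copies. The site 11 tag at chr2:113749114-113749134 had 51 copies and ends 2950 bases from the annotated 3′ end, against 479 for the main tag. The site 5 tag at chr2:113747270-113747290 had 15 copies and the site 6 tag at chr2:113747384-113747404 had 10. *Grem1* transcripts were thus read at several places in one line and at no listed place in the other.

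The *Nbl1* tags had ratios of opposite sign. The main tag had 441 copies in GC-1spg against 945 in GC-2spd (ts), and its log2 ratio was 1.20 with an interval from 1.04 to 1.37. The site 2 tag at chr4:139083192-139083212, which ends 908 bases from the 3′ end, had 37 and 21 copies. Its log2 ratio was -0.72 with an interval from -1.56 to 0.095. The intervals do not overlap, although that of the site 2 tag includes 0. For *Id3* the main tag had 1303 and 1258 copies (log2 ratio 0.051), and the site 2 tag at chr4:136144955-136144975 had 12 and 22, a log2 ratio of 0.98 with an interval from -0.10 to 2.12. The main *Smad6* tag had 147 and 116 copies, a log2 ratio of -0.24 with an interval from -0.60 to 0.12.

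**Figure D3:**
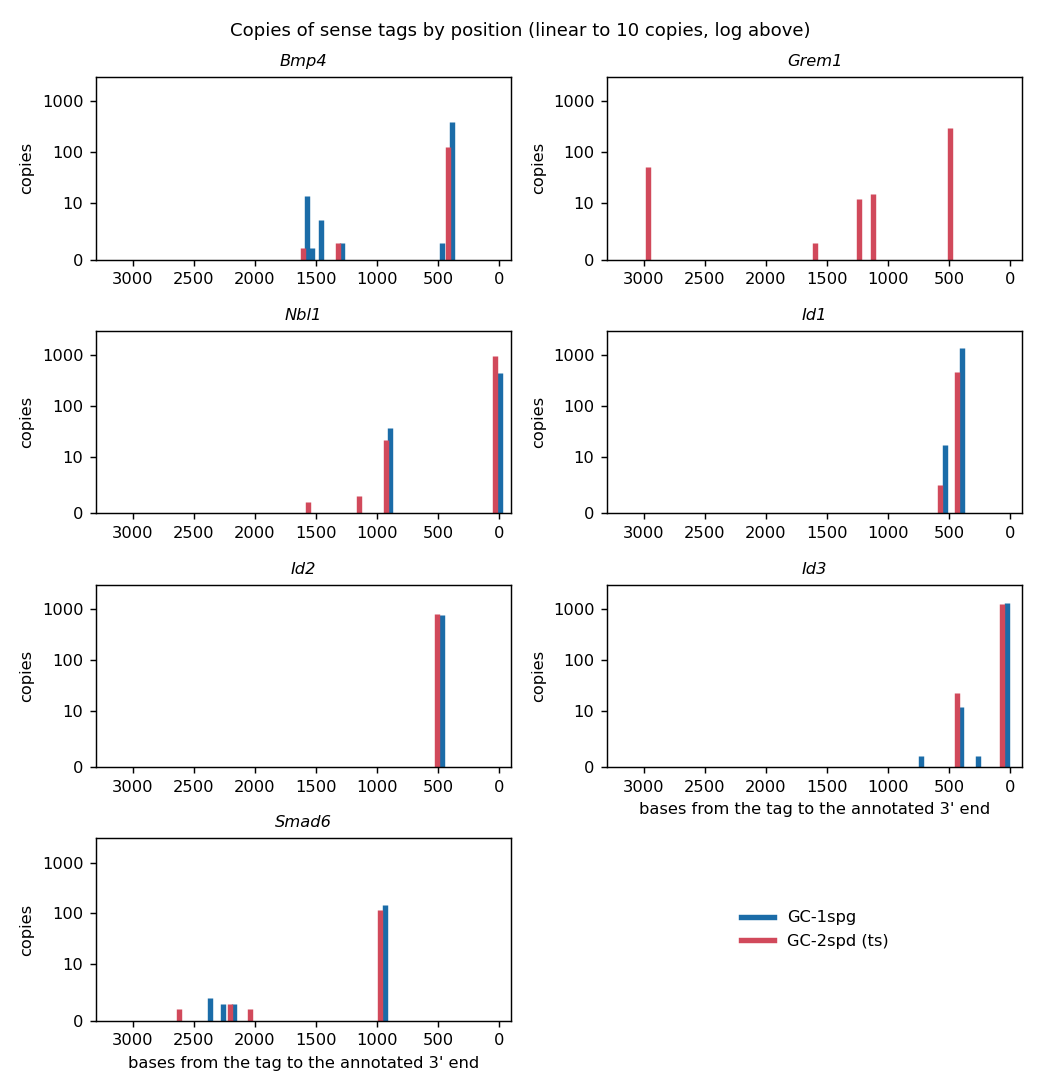
Copies of the unambiguous sense tags of each gene in GC-1spg (blue) and GC-2spd (ts) (red) against the bases from the tag to the annotated 3′ end, with bars set slightly apart and a scale that is linear to 10 copies and logarithmic above. The tallest bars stand at the site closest to the 3′ end in all 7 genes, and *Grem1* has bars in GC-2spd (ts) alone, out to 2950 bases.

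The other genes of the pathway were read from a list of 62 genes arranged by role. Of these, 42 were listed in a library and 34 in both. The call rule gave 9 as higher and 5 as lower in GC-2spd (ts), which is 33.3% of the listed genes (21.4% higher and 11.9% lower), and 28 listed genes did not pass. With an assumed variation of 0.2 between cultures 5 were called higher and 0 lower, and with 0.4 the counts were 0 and 0. The median log2 ratio of the 34 genes was 0.32, and with bounds it was 0.42 over 39 genes. The list was written with earlier results of these libraries known, and its shares are given beside 19.5%, 11.7% and 7.84% of all genes as a description.

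Of 12 further BMP and GDF ligand genes 2 were listed and none passed. The most tagged was *Gdf6*, with 12 tags in GC-1spg against 5 in GC-2spd (ts). *Bmp4* was therefore the ligand gene with most tags in both libraries. Of 15 further antagonists and modulators 9 were listed, with 1 higher and 1 lower. *Chrdl1*, which encodes a chordin-like antagonist, had 0 tags in GC-1spg against 17 in GC-2spd (ts), all copies of 1 tag sequence. Its bound, set as for *Grem1*, was 3.85-fold higher and rests on that sequence alone. *Fst*, which encodes the activin and BMP antagonist follistatin, had 40 and 6 tags, and its log2 ratio was -2.64 (interval from -4.16 to -1.39). The secreted antagonists thus did not all move one way. *Crim1*, which encodes a membrane protein that binds BMPs, had most tags in this role, 1524 and 1605, and a log2 ratio of 0.18.

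Among 12 receptors and coreceptors 9 were listed, with 3 higher and 1 lower. *Bmpr2*, which encodes the type II BMP receptor, had most tags, 313 in GC-1spg against 384 in GC-2spd (ts), with a log2 ratio of 0.40, and did not pass. *Acvr1*, which encodes a type I receptor, had 178 and 60 tags, a log2 ratio of -1.47 with an interval from -1.91 to -1.04. The 3 higher genes had no unambiguous sense tag listed in GC-1spg. *Rgma*, a coreceptor gene, had 15 tags in GC-2spd (ts) and was higher by at least 2.08-fold. *Bambi*, which encodes a pseudoreceptor without a kinase, had 31 tags, all copies of 1 tag sequence. Its bound of 7.01-fold rests on that sequence alone, and *Bambi* was not called with the last CATG site alone. *Eng*, which encodes endoglin, had 34 tags and a bound of 4.71-fold.

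All 4 Smads that transduce the signal were listed. *Smad1* had 56 tags in GC-1spg against 341 in GC-2spd (ts), and its log2 ratio was 2.71 with an interval from 2.30 to 3.14. It had most tags in this role over both libraries together, although *Smad5* (124 tags) and *Smad4* (111 tags) had more in GC-1spg, and the other 3 did not pass. All 8 intracellular inhibitors were listed, of which *Smad7*, which encodes an inhibitory Smad of the TGF-beta and BMP pathways, passed as higher. *Smad7* had 308 and 598 tags, and its log2 ratio of 1.06 (interval from 0.86 to 1.26) fell to 0.89 with TMM factors, below the limit of the call. *Fkbp1a*, whose product binds type I receptors, had most tags in this role over both libraries together, 608 and 394, with a log2 ratio of -0.52, and was below *Smad7* and *Ski* (540 tags) in GC-2spd (ts). Of the inhibitory Smad genes *Smad6* had the lower level in both libraries, and the intervals of the *Smad6* and *Smad7* ratios do not overlap.

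Of 8 further target genes 7 were listed, with 2 higher and 3 lower. *Id4*, the remaining *Id* gene, had 38 tags in GC-1spg against 7 in GC-2spd (ts), and its log2 ratio was -2.34 with an interval from -3.75 to -1.16. The homeobox genes *Msx1* and *Msx2* moved in opposite directions. *Msx1* had 57 and 17 tags, a log2 ratio of -1.64 (from -2.52 to -0.84), while *Msx2* had 0 and 39 tags and a bound of 6.65-fold higher. *Runx2*, which encodes a transcription factor of bone formation, had 99 and 213 tags, a log2 ratio of 1.21 (from 0.86 to 1.57). *Gata2*, which encodes a zinc finger transcription factor, had 28 and 4 tags, a log2 ratio of -2.71 (from -4.68 to -1.19). *Atoh8* had most tags over both libraries together, 242 and 199, and fewer than *Runx2* in GC-2spd (ts). Its log2 ratio was -0.18, and it did not pass.

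The E protein genes *Tcf3*, *Tcf4* and *Tcf12* encode the partners that Id proteins bind. *Tcf4* had 86 tags in GC-1spg against 481 in GC-2spd (ts), and its log2 ratio was 2.59 with an interval from 2.25 to 2.93. *Tcf3* had most tags, 585 and 959, and neither *Tcf3*, at a log2 ratio of 0.81, nor *Tcf12* passed.

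**Figure D4:**
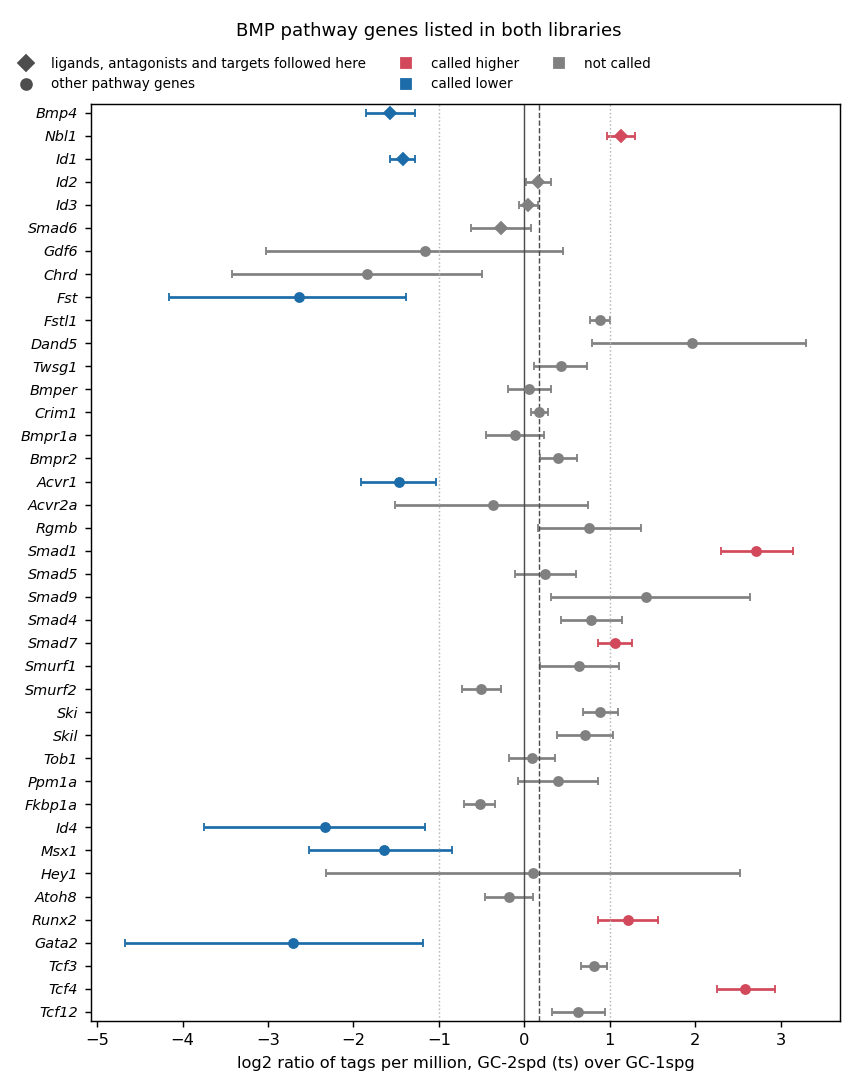
Log2 ratio of GC-2spd (ts) over GC-1spg for the pathway genes listed in both libraries, with exact 95% intervals for counting error, in order of role. Diamonds mark the genes followed here, circles the other pathway genes, dotted lines a log2 ratio of 1 in either direction, and the dashed line the point that TMM factors would set to 0. *Smad1* and *Tcf4* lie farthest to the right, and *Fst*, *Id4* and *Gata2* farthest to the left with wide intervals.

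The scaling of the libraries moves every ratio by the same amount. TMM factors shift each log2 ratio by -0.17, and scaling to unambiguous sense tags shifts it by -0.084. With TMM factors the median over all genes listed in both libraries was -0.010, and *Bmp4* stood at -1.74, *Id1* at -1.60, *Nbl1* at 0.96 and *Smad6* at -0.44. *Id2* then stood at -0.0095 and *Id3* at -0.13, so both had a ratio just above 0 with the total of clean tags and just below 0 with TMM factors.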

How the data were processed

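Each deposited file gives the sequence of every tag kept by the authors, its raw count and a TPM value. The authors had dropped reads of adaptor, tags of low quality and tags seen once. Which program they used to assign tags to genes is not stated in the methods read here. The counts were used, and TPM was computed from them over all clean tags of a library. Sense and antisense CATG tags were taken from 141767 transcripts of GENCODE M21 (GRCm38). Tags were matched exactly first, then with at most 1 mismatch after CATG, and sense tags whose best matches belonged to 1 gene were summed per symbol. Unambiguous sense tags made up 54.7% of the copies for GC-1spg and 57.9% for GC-2spd (ts).

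The thresholds on FDR and log2 ratio are those of the authors, whose methods cite their test without naming it. The Audic-Claverie test, Benjamini-Hochberg adjustment and 0.01 TPM for a gene at 0 were chosen here. The quasi-likelihood test of edgeR needs replicates and could not be fitted. Ratio intervals are exact (Clopper-Pearson, conditional binomial) at 95% and level intervals are exact Poisson. All 9 genes are described. Of the other pathway genes, those called and the most tagged in each role are named with values. *Hjv* is named *Hfe2* in the annotation. Markers are named from the marker lists, and *Smad4*, *Smad5*, *Ski*, *Tcf12* and the genes in the closing section because a count turns on them. Members and lists were chosen with earlier results of these data known. The alternatives were exact matching, the last CATG site only, sense matches preferred, both strands together, pseudogenes left out, TMM and unambiguous tag scaling, 0.5 tags added, a minimum of 10 tags, an exact binomial test, and the exact test of edgeR at a set biological coefficient of variation (BCV) of 0.2 or 0.4. The software was edgeR 4.0.16 under R 4.3.3, and scipy 1.17.1, numpy 2.4.6, matplotlib 3.10.9 and pandas 2.3.3 under Python 3.11.15.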

Additional observations from a re-analysis of the deposited data

Results flagged for a closer look

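Tags outside the sums above were listed for 7 of the genes. Antisense tags, which match the opposite strand of 1 gene only, added up to 10 copies in GC-1spg against 11 in GC-2spd (ts) for *Bmp4*. *Grem1* had 0 and 11 antisense copies, *Nbl1* 26 and 19, and *Id1* 28 and 11. *Id2* had 22 and 71, *Id3* 66 and 29, and *Smad6* 11 and 9. *Bmp2* and *Nog* had none. Adding the antisense copies changed no call among these genes.

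A further sense tag of *Id2*, CATGaacgactgctactccaa, had 20 copies in GC-1spg against 48 in GC-2spd (ts). It is shared with *Gm6175* and was therefore left out of the *Id2* sum. With pseudogene transcripts left out of the reference it counts for *Id2*, whose log2 ratio is then 0.21.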

How the results depend on the processing

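The calls of *Grem1*, *Bmp4* and *Id1* held under every choice of matching, strand, scaling and minimum tried, and no called gene of these or of the pathway list changed direction. *Nbl1* was no longer called with TMM factors (log2 ratio 0.96), which also moved *Id1* to -1.60, *Id2* to -0.0095 and *Id3* to -0.13 by more than their counting intervals. Exact matching put the log2 ratio of *Id2* at a bound of 6.78, and 0.5 added tags put that of *Grem1* at 9.70. The *Id2* bound allows unlisted copies for the 3 tags seen in GC-2spd (ts) with the main matching, not for exact tags only. *Bmp2* and *Nog* have no ratio. The calls assume that cultures differ by counting noise alone. With an assumed BCV of 0.2, 511 genes were higher and 489 lower over the whole table, 5 and 0 over the other pathway genes, and with 0.4, 108 and 136 over the whole table and 0 and 0 over those genes. *Grem1* stayed called at both, and *Bmp4*, *Nbl1* and *Id1* at neither. Using the last CATG site alone, *Bambi*, *Smad7*, *Id4* and *Msx2* were not called and *Fstl1* was. Adding antisense tags replaced *Runx2* by *Ski*, both scalings lost *Smad7*, and a minimum of 10 tags added *Dand5*. No paired analysis was possible because each line has 1 library, and for the same reason none could be left out. Depth leaves genes with few tags, such as *Nog*, without a usable ratio.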

Other observations

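The split seen in the *Id2* tag was counted over all genes after it had been seen there. In 91 genes, 1 reference tag each was listed in GC-1spg only in a form with 1 different base and in GC-2spd (ts) only in the exact form, with at least 20 copies on each side. The reverse was seen for 0 tags, and the exact form had at least 20 copies in both libraries for 10031 reference tags.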
